A study of Drosophila melanogaster with 4 samples.

Results

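The genes described here encode the proteins of the mitochondrial ribosome. The set is defined by gene symbol: it holds every protein-coding gene of the fly annotation whose symbol starts with mRpL (large subunit) or mRpS (small subunit). This gave 73 genes of 13968 protein-coding genes, 47 with an mRpL symbol and 26 with an mRpS symbol. By homology with mammals the mRpS18A and mRpS30 proteins belong to the large subunit, so the symbol's letter is not always the true place. For each gene, the peaks of a chromatin immunoprecipitation (ChIP-seq) study of Gug were read within 1 kb of its transcription start sites (TSSs).

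The chromatin came from whole Drosophila melanogaster embryos aged 0 to 24 h, of a transgenic strain labelled Gug-GFP with an insertion targeting Gug. The precipitated protein was a fusion of Gug with eGFP, pulled down with an antibody against GFP from chromatin sonicated to 200 to 800 bp, per the labels. Which of the authors' input files served as the control for each peak list is not stated, so the background behind each peak's signal is unknown. There were 4 biological replicates of 1 group, so no condition was compared, and no control sample is used here. Whole embryos mix all tissues and many stages, and the labels do not say what drives the transgene or how many insertion lines there were. Peaks were called per replicate, and the thresholded lists of replicates 1 to 4 held 1948, 3786, 2117 and 2450 peaks on the main arms. The depth of the libraries is unknown because no read counts are in the files, and replicate 2 stands apart by the length of its list.

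The mitochondrial ribosome translates the few messages of the mitochondrial genome, which in animals encode core subunits of the respiratory chain and the ATP synthase. All of its proteins are encoded in the nucleus, made in the cytosol and imported. Some have a counterpart in the bacterial ribosome and others are found only in mitochondria. Gug, also called Grunge or Atrophin, is a nuclear co-repressor that is known to act with nuclear receptors such as Tailless. A peak near a TSS records where the fusion protein was enriched on chromatin and gives no measure of the gene's expression.

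Gug-eGFP peaks lay at a minority of these genes. A gene was called where at least 2 of the 4 thresholded lists held a peak summit within 1 kb of any of its TSSs. By that rule 17 of 73 genes (23.3%) were called, beside 16.0% of all 13968 protein-coding genes. A peak in all 4 lists was found at 8 of the 73 (11.0%), beside 7.88% of all genes. At the other end 42 of the 73 genes had no thresholded peak within 1 kb in any list, 14 had a peak in 1 list, 3 in 2 lists and 6 in 3 lists. No test of these shares was made, since the gene set was proposed with results of these data known and there is only 1 group.

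The share of genes with a peak was highest in the longest list. In replicate 1 a peak was found at 10 of the 73 genes (13.7%), beside 10.3% of all genes. In replicate 2 it was 31 genes (42.5%), beside 22.5% of all genes. In replicate 3 it was 15 genes (20.5%), beside 13.8%, and in replicate 4 it was 14 genes (19.2%), beside 13.0%. The mitochondrial ribosomal protein genes were above all genes in 4 of 4 lists, with a mean of 24.0% ± 12.7 for the 73 genes and 14.9% ± 5.30 for all genes (SD, n = 4 lists). The mean difference was 9.07 percentage points ± 7.40 (SD, n = 4), and replicate 2 gave the widest gap. All 14 genes with a peak in 1 list had it in replicate 2, as did 85.5% of the 1134 genes of the whole annotation found in 1 list. With every list cut to its 1948 strongest peaks, replicates 1 to 4 held 10, 20, 15 and 12 of the 73 genes, beside 10.3%, 14.1%, 13.1% and 11.2% of all genes. A call in at least 2 of these cut lists held for 14 of the 73 (19.2%), beside 13.4% of all genes.

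**Figure D1:**
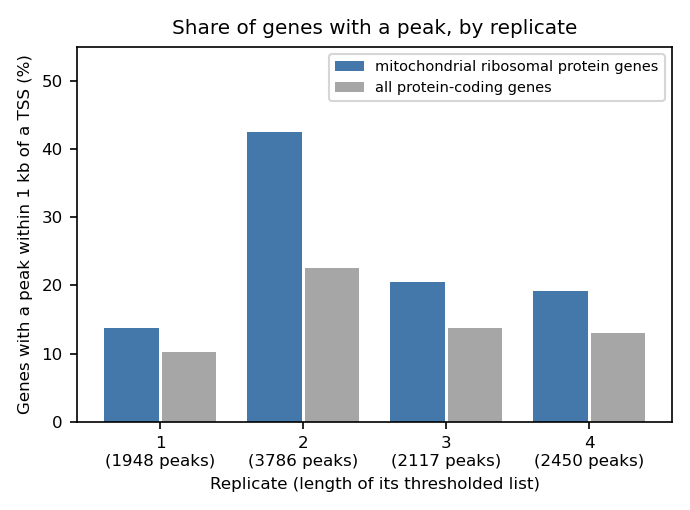
Share of genes with a thresholded peak summit within 1 kb of a TSS (y axis, percent) in the list of each replicate (x axis, with the number of peaks in the list). Blue bars are the 73 mitochondrial ribosomal protein genes and grey bars all 13968 protein-coding genes; the blue bar is the taller in each list, and it reaches 42.5% in the long list of replicate 2.

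Peak strength is given below as the percentile of a peak's deposited signal within its own replicate's thresholded list, since the signal is a value the authors gave each peak and the lists are not scaled to each other. Summit positions are medians over the lists that hold the peak, with negative distances upstream of the gene's nearest TSS. Coordinates are on dm6, 1-based.

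Of the large subunit genes with a peak in all 4 lists, mRpL23 had the strongest peaks outside mRpL41. mRpL23 (FBgn0035335, chr3L:2372844-2373704, minus strand) encodes a protein that in other ribosomes sits at the exit of the peptide tunnel. Its percentiles were 98.0, 99.2, 98.4 and 98.6 in replicates 1 to 4. All 4 values lay above the 95th percentile, close together (98.5 ± 0.50, SD, n = 4). The summit lay 86 bp upstream of the TSS at 2373501 and inside an intron of transcripts that start further upstream, at 2373678 and 2373704. Because of these 3 TSSs the side is not settled: the summits lay at −64 and −82 bp from the nearest start in replicates 1 and 2, and at +82 and +86 bp in replicates 3 and 4.

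mRpL20 (FBgn0036335, chr3L:13017149-13017867, minus strand), an early-assembling protein in bacteria, had percentiles of 79.8, 93.7, 85.8 and 91.6. Replicate 1 was the lowest and replicate 2 the highest (87.7 ± 6.27, SD, n = 4). Its summit was 234 bp upstream of its TSS and only 165 bp from the TSS of Icmt, an isoprenylcysteine carboxyl methyltransferase gene on the other strand. mRpL24 (FBgn0031651, chr2L:4944256-4945361, minus strand), an assembly-initiating protein in bacteria, had 57.8, 87.4, 75.3 and 80.9 (75.3 ± 12.7). Replicate 1 was the lowest, and the summit lay 191 bp upstream of mRpL24 but 27 bp from the TSS of betaggt-I, which encodes a subunit of a protein prenylation enzyme. mRpL4 (FBgn0001995, chr2L:16328059-16329132, minus strand) had the widest spread of the 8, with 37.8, 87.0, 74.9 and 47.4 (61.8 ± 23.0). Replicates 1 and 4 were low and replicates 2 and 3 high at mRpL4, whose summit was 102 bp upstream of its own TSS, the nearest one.

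Among the small subunit genes, mRpS23 (FBgn0260407, chr2L:13834250-13835072, minus strand), a protein found only in mitochondrial ribosomes, had the highest mean percentile of all 73 genes. Its values were 98.8, 99.3, 98.8 and 99.3 (99.1 ± 0.28, SD, n = 4), so no replicate stood apart. The summit was 406 bp upstream of mRpS23 and 86 bp from the TSS of CenG1A, a gene for an Arf GTPase-activating protein. mRpS10 (FBgn0038307, chr3R:15229665-15230516, plus strand), a protein of the ribosome's head, had 98.1, 98.4, 98.3 and 99.5 (98.6 ± 0.66). Its summit lay 144 bp upstream of mRpS10 and 113 bp from the TSS of Art3, an arginine methyltransferase gene. mRpS2 (FBgn0031639, chr2L:4849439-4850419, minus strand) had 58.3, 83.9, 82.4 and 87.8 (78.1 ± 13.4). Replicate 1 was again the lowest, and the mRpS2 summit lay 185 bp from its own TSS and 37 bp from that of Mon1, a gene for a factor of endosome maturation.

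The sequences under 6 of these peaks are shown because they are the stretches that each of the 4 lists marked, and because most of them lie between 2 genes that start in opposite directions. Each is read from the dm6 reference on the strand of the ribosomal protein gene, 5′ to 3′, and holds bases outside annotated exons within 100 bp of the median summit. Capitals mark the 21 bases centred on the summit, or as many as fall in the stretch.
mRpS23, chr2L:13835378-13835563: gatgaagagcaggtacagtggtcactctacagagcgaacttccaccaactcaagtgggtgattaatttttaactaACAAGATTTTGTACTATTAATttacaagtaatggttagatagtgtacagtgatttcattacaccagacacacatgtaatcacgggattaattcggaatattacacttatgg
mRpS10, chr3R:15229421-15229621: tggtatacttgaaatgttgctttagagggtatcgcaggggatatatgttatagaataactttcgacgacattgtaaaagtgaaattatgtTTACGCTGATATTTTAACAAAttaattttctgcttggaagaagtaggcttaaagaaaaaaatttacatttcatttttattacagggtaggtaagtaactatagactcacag
mRpL23, chr3L:2373502-2373596: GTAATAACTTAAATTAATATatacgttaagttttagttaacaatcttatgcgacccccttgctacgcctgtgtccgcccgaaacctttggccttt
mRpS2, chr2L:4850504-4850640: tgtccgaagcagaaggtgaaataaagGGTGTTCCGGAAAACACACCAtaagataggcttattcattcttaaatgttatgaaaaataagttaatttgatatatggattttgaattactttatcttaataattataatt
mRpL24, chr2L:4945452-4945578: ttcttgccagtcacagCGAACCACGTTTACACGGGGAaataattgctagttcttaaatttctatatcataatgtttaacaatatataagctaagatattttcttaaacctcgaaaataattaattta
mRpL4, chr2L:16329134-16329334: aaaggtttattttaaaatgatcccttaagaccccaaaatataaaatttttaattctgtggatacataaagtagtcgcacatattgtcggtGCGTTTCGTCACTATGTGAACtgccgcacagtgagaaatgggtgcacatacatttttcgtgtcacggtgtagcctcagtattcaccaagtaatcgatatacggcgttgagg

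Of the 10 short motifs searched, only the TATA box letters TATAAA occurred in these 6 stretches, at base 39 of the mRpL4 stretch. Such a match is a description of letters and not of a bound site. The summits at the 17 called genes were rich in A and T: the median GC content within 100 bp of the summit was 34.3% for the 17 and 37.3% over all 2643 regions found in at least 2 lists. The 2643 regions were not limited to promoters, so these values are not matched.

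mRpL41 (FBgn0034001, chr2R:15217024-15217617, minus strand), a protein found only in mitochondrial ribosomes, completed the 8 genes with a peak in every list. Its percentiles were 97.6, 99.5, 98.4 and 99.4 (98.7 ± 0.85, SD, n = 4), with the summit 102 bp upstream of its own TSS. With mRpS23, mRpS10 and mRpL23 it made 4 genes above the 95th percentile in all 4 lists. Across the 8 genes the lowest percentile was in replicate 1 at 7 genes, and the highest in replicate 2 at 6 genes. Percentiles are taken within each list, and replicate 1 had the shortest list (1948 peaks) and replicate 2 the longest (3786). The same count over all genes was not made, so this order cannot be read as particular to these genes. Summits of these 8 genes repeated closely: their SD over the 4 lists had a median of 14.7 bp and ran between 5.26 bp (mRpL20) and 17.4 bp (mRpL4). The same SD over all genes is not given here, so close summits cannot be called particular to these genes.

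Peaks in 3 lists were found at 6 genes, all with large subunit symbols and all weaker on average than the 8 above. mRpL18 (chr2R:12756434-12757173, plus strand), whose counterpart belongs to the central protuberance, had percentiles of 63.7, 77.3 and 42.8 in replicates 2, 3 and 4. It is the only called gene whose summit fell in a 5′ UTR, that of the neighbour Taz, which encodes the cardiolipin-remodelling enzyme tafazzin. mRpL47 (chr3R:9514822-9515908, minus strand), the counterpart of bacterial L29, had 15.0, 86.0 and 75.9 in replicates 1, 2 and 3, a spread of 38.4 (SD, n = 3) about a mean of 58.9. mRpL34 (chr2R:16098948-16099337, plus strand) had 74.0, 55.4 and 30.7 in replicates 2, 3 and 4. At mRpL34 replicate 2 was the highest and replicate 4 the lowest. mRpL37 and mRpL39, found only in mitochondrial ribosomes, followed with 74.7, 43.9 and 39.5 for mRpL37 and 56.9, 56.5 and 42.1 for mRpL39 in the same replicates. mRpL32, which has a bacterial counterpart, was the weakest of the 6 with 55.4, 41.5 and 11.4. The mRpL47 peak was absent from the list of replicate 4, and the peaks of the other 5 genes were absent from that of replicate 1. The mRpL37 summits were spread, at −181, −54 and −84 bp from the TSS in replicates 2, 3 and 4 (SD 66.4 bp, n = 3).

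Peaks in 2 lists were found at 3 genes and were weak. mRpS6 had percentiles of 7.34 and 28.8 in replicates 1 and 2, mRpL35 had 17.9 and 10.7 in replicates 2 and 3, and mRpS22 had 33.4 and 12.8 in replicates 2 and 4. Each of these pairs included replicate 2, and without replicate 2 none of the 3 would be called. The 2 mRpS22 summits lay at −332 and −121 bp from the TSS. When summits of different lists were joined within 200 bp, mRpS22 was no longer called. The median over genes of the mean percentile was 93.1 for the 8 genes with a peak in all 4 lists (lowest 61.8). It was 51.9 for the other 9 (highest 61.3). The number of lists and the percentile come from the same peaks, and the same split over all called genes was not made. Over all 17 the median was 61.3, beside 55.3 over all called genes.

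The 14 genes found in replicate 2 alone had percentiles between 2.69 (mRpL44) and 76.1 (mRpL17), with a median of 39.1. mRpS29, the GTP-binding protein known in mammals as DAP3, had 71.7, mRpL21 had 59.8, mRpL11 of the stalk base had 58.1 and mRpL27 had 51.5. mRpL9 had 49.6, mRpL53 had 39.3, mRpL16 had 38.9 and mRpL13 had 18.9. The remaining 5 were mRpS18B with 15.6, mRpS11 with 14.2, mRpS31 with 11.6, mRpS26 with 11.0 and mRpL44. So even the peaks of mRpL17 and mRpS29, in the upper part of the list of replicate 2, had no thresholded counterpart in replicates 1, 3 and 4. The mRpL27 peak was the only one of the 14 far inside a gene, 759 bp downstream of the TSS, where it lay in a 3′ UTR and nearest to the TSS of RpL27A, a cytosolic ribosomal protein gene.

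**Figure D2:**
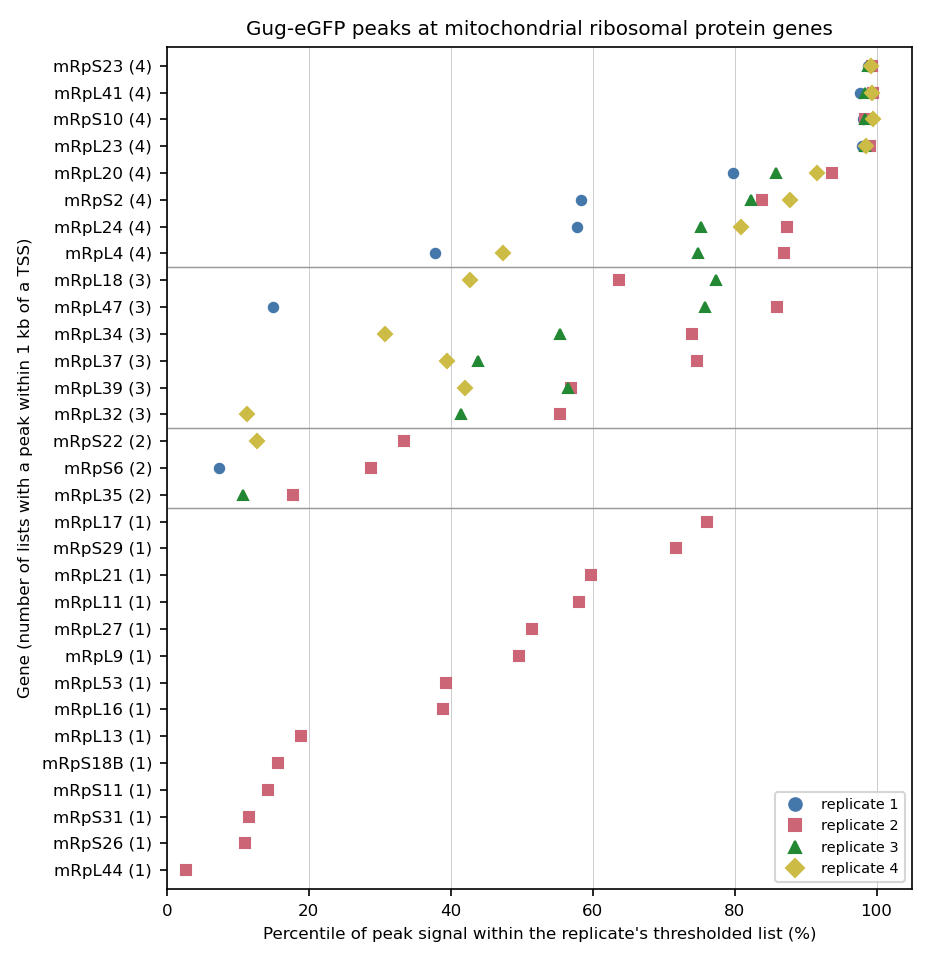
Percentile of peak signal within each replicate's thresholded list (x axis, percent) for the 31 genes with a peak in at least 1 list (rows, with the number of lists in brackets); symbols and colours mark the replicates. The 4 genes at the top sit above 95 in all 4 lists, and every gene found in 1 list has its point in replicate 2.

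The neighbourhood of these genes was read from the annotation, without the peaks. A divergent promoter was defined as a gene on the other strand starting within 1 kb upstream, head to head. Of the 73 genes 58 (79.5%) had one, beside 36.2% of all protein-coding genes. The distance between the 2 TSSs had a median of 283 bp for the 58 genes and 298 bp for all genes with a divergent promoter. The genes are also short and simple, with a median length of 909 bp, beside 2164 bp for all genes, and a single TSS at 91.8%, beside 73.5%.

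All 17 called genes had a divergent promoter, beside 65.0% of all called genes. Among the 58 genes with one, 17 (29.3%) were called, beside 28.7% of the 5052 genes with a divergent promoter in the annotation. Among the 15 without one, none was called, beside 8.76% of such genes; mRpL9 and mRpL13 had a peak in replicate 2. Split in this way, the share called at divergent promoters was close to that of all such genes. By the distance between the TSSs the called counts were 3 of 18 genes up to 100 bp (16.7%, beside 25.0% of all such genes), 7 of 15 at 101 to 300 bp (46.7%, beside 30.4%), 5 of 20 at 301 to 500 bp (25.0%, beside 34.7%) and 2 of 5 at 501 to 1000 bp (40.0%, beside 22.8%). These classes hold few genes and lie on either side of the annotation's shares. The split depends on the distance that defines a pair. With pairs up to 500 bp apart, 15 of 53 divergent genes (28.3%, beside 30.6% of all such genes) and 2 of the other 20 (10%, beside 10.5%) were called. With pairs up to 250 bp apart, 6 of 25 divergent genes (24.0%, beside 26.6%) and 11 of the other 48 (22.9%, beside 14.2%) were called, so under this definition the share was above that of all genes outside the class.

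**Figure D3:**
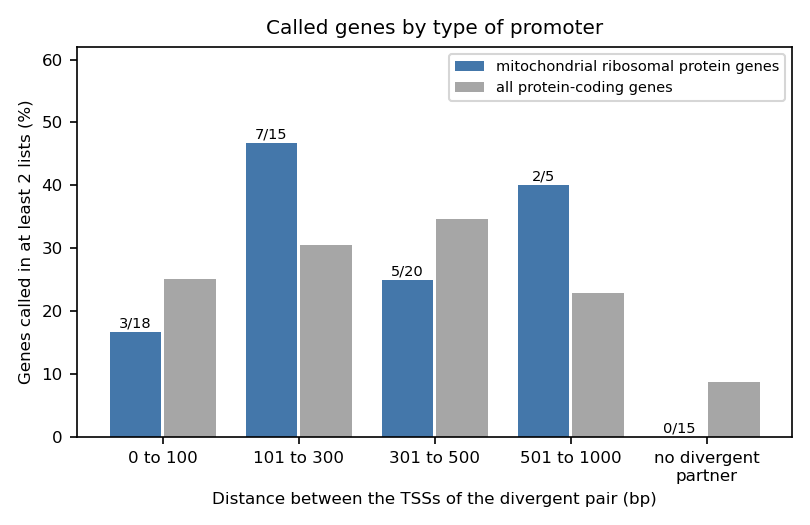
Share of genes called in at least 2 lists (y axis, percent) by the distance between the TSSs of a divergent pair (x axis, bp), with genes that have no divergent partner at the right. Blue bars are the mitochondrial ribosomal protein genes, with called and total counts above them, and grey bars all protein-coding genes; no blue bar stands over the 15 genes without a divergent partner, where 8.76% of all genes were called.

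A peak in a shared promoter cannot be given to one gene by position alone. At 9 of the 17 called genes (52.9%) the nearest TSS belonged to another gene, beside 31.9% of all called genes. This held for 5 of the 8 genes with a peak in every list: mRpL20 (Icmt), mRpL24 (betaggt-I), mRpS2 (Mon1), mRpS10 (Art3) and mRpS23 (CenG1A). The other 4 were mRpL18, where Taz was 158 bp away, mRpL34, where Dg, the dystroglycan gene, was 148 bp away, mRpS22, where CG5003 was 165 bp away, and mRpL47, where CG8176 and the histone demethylase gene Kdm3 share a start 7 bp away. At the other 8 the gene's own TSS was nearest, and the head to head neighbours of 7 of them were CG4440 (mRpL4), CG9004 (mRpL23), CG8079 (mRpL41), qless of coenzyme Q synthesis (mRpL32), the proteasome subunit gene Prosbeta2 (mRpL39), Mitofilin of cristae organisation (mRpL35) and Cip4, a gene for a membrane-bending F-BAR protein (mRpS6). The nearest TSS is that of the median summit, and replicates can differ. At mRpL32 the margin was small, with the summit 129 bp from its own TSS and 135 bp from that of qless. The mRpL32 summits had an SD of 14.6 bp over 3 lists. All 17 neighbours were themselves called, as the same peaks lie within 1 kb of them.

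If each summit was given only to the gene with the nearest TSS, 9 of the 73 genes (12.3%) were called, beside 11.3% of all genes. These were mRpL4, mRpL23, mRpL32, mRpL34, mRpL35, mRpL37, mRpL39, mRpL41 and mRpS6. mRpL34 stayed on this list through a weaker further peak near its own TSS in 2 lists.

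Most summits lay between the starts of the pair. The median summit was upstream of the gene's nearest TSS at 17 of 17 called genes, beside 86.3% of all called genes; mRpL23 counts here only by its median, and without replicate 1 or 2 the counts were 15 of 16 and 13 of 14. It lay within 200 bp of it at 13 of 17 (76.5%), beside 55.8%. The median distance was 129 bp, between 39 bp (mRpS6) and 406 bp (mRpS23), beside 175.5 bp for all called genes. In these comparisons all called genes include those without a divergent promoter, whereas all 17 have one. By annotation 15 summits were intergenic, with mRpL23 in an intron and mRpL18 in the 5′ UTR of its neighbour. At 15 of 17 genes the summit fell between the 2 TSSs of the pair. At mRpL18 and mRpL23, whose pairs start only 20 and 24 bp apart, the summit fell outside. Summit class and placement between the 2 TSSs were counted for these 17 genes only, so neither can be called particular to them.

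**Figure D4:**
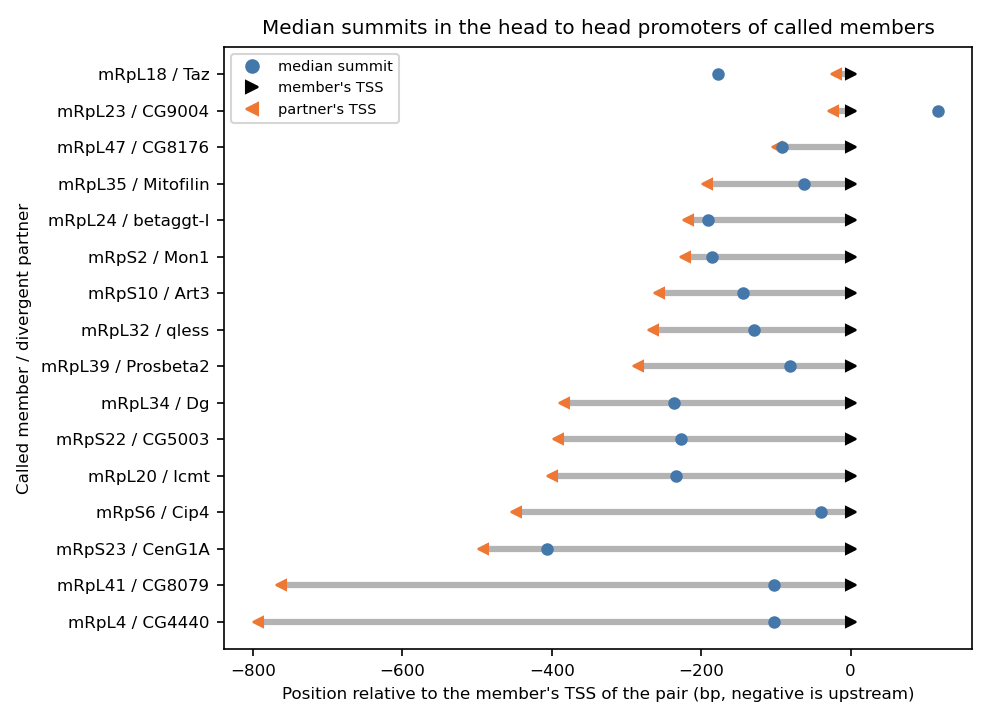
Position (x axis, bp from the member's TSS in the pair, negative upstream) of the median summit (blue circle), the TSS of the called mitochondrial ribosomal protein gene (black triangle, at 0) and the TSS of its head to head neighbour (orange triangle) for 16 of the 17 called genes (rows, sorted by the gap, drawn in grey; mRpL37 is not drawn). The blue circle lies on the grey gap in 14 rows and outside it for mRpL18 and mRpL23; for mRpL47 one of its neighbours that share a start is named.

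The genes without a call were not uniform in the longer ranked lists, which keep many weak peaks. A ranked peak within 1 kb in all 4 lists was present at 37 of the 73 genes (50.7%), beside 32.2% of all genes. With the best ranked peak of a gene scored by its percentile in each list, and 0 where there was none, the median of the gene means was 61.8 for the 73 genes and 33.3 for all genes. The 58 genes with a divergent promoter had a median of 78.1, beside 56.0 for all divergent genes, and the 15 without had 21.3, beside 25.2. Among uncalled genes the medians were 49.7 for the 56 mitochondrial ribosomal protein genes and 25.4 for all uncalled genes. Unlike the called share, the ranked percentile of the genes with divergent promoters stood above that of all such genes; ranked lists contain weak peaks that failed the authors' threshold.

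The 6 uncalled genes with the highest mean ranked percentile were mRpL11, mRpL16, mRpS16, mRpS21, mRpL33 and mRpS18B. mRpL11 had 88.7, 95.7, 91.3 and 92.0 in replicates 1 to 4, mRpL16 had 91.1, 93.6, 91.1 and 78.4, and mRpS16 had 88.2, 89.1, 92.8 and 82.2. The signal percentiles of these 3 genes are high in the ranked lists, but only the peaks of mRpL11 and mRpL16 in replicate 2 were past the threshold. Those 2 peaks had a −log10 irreproducible discovery rate of 4.22 and 3.26. For the other ranked peaks of the 3 genes it was low, between 0.170 (mRpS16, replicate 2) and 1.19 (mRpL11, replicate 3). mRpS21, mRpL33 and mRpS18B had mean ranked percentiles of 86.8, 86.7 and 83.7. At the low end 6 genes had no ranked peak within 1 kb in any list: mRpL15, mRpL30, mRpL46, mRpL51, mRpS9 and mRpS18A. The genes with no thresholded peak in any list that are not yet named were mRpL1, mRpL2, mRpL3, mRpL10, mRpL12, mRpL14, mRpL19, mRpL22, mRpL28, mRpL36, mRpL38, mRpL40, mRpL42, mRpL43, mRpL45, mRpL48, mRpL49, mRpL50, mRpL52, mRpL54 and mRpL55 of the large subunit, and mRpS5, mRpS7, mRpS14, mRpS17, mRpS18C, mRpS24, mRpS25, mRpS28, mRpS30, mRpS33, mRpS34 and mRpS35 by their mRpS symbols. They include mRpL10 and mRpL12, whose bacterial counterparts form the stalk of the large subunit.

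**Figure D5:**
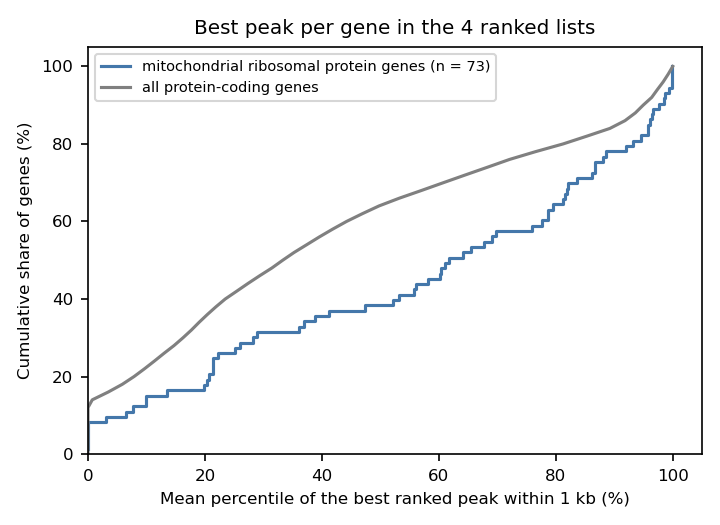
Cumulative share of genes (y axis, percent) by the mean over the 4 ranked lists of the percentile of the gene's best peak within 1 kb (x axis, percent, 0 for a list with no peak). The blue line is the 73 mitochondrial ribosomal protein genes, with a median of 61.8, and the grey line all protein-coding genes, with a median of 33.3.

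By subunit, 12 of 47 genes with mRpL symbols (25.5%) and 5 of 26 with mRpS symbols (19.2%) were called, beside 16.0% of all genes. A grouping by descent was made after the values were seen, from the names used for the mammalian ribosome. In it 12 of 43 genes with a bacterial counterpart (27.9%) and 5 of 30 without one (16.7%) were called, beside the same 16.0%. These groups were not split by type of promoter. By chromosome arm the called genes were 4 of 12 on 2L (beside 14.6% of all genes there), 3 of 12 on 2R (beside 15.4%), 4 of 17 on 3L (beside 17.0%) and 6 of 21 on 3R (beside 17.3%). On X none of 11 was called, and mRpL16 alone had a thresholded peak, in replicate 2; of all protein-coding genes on X 15.5% were called. None of these differences was tested.

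No called gene had its summit near the edge of the 1 kb window. The summits farthest inside it were those of mRpL27 at +759 bp and of mRpS23 at −424, −414 and −399 bp in replicates 2, 3 and 1. The nearest ones outside it were at −1181 and −1214 bp from mRpL34, which has other peaks inside, at +1284 and +1286 bp from the TSSs of mRpL27 and mRpL13, at −1288 bp from mRpL2 and at +1342 bp from mRpS7.

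In the authors' conservative list for the whole series, which combines the 4 replicates and holds 3271 peaks, 26 of the 73 genes (35.6%) had a peak within 1 kb, beside 19.7% of all genes. Of the 17 called genes 16 were in it, all but mRpS22. The other 10 were mRpL9, mRpL11, mRpL13, mRpL16, mRpL17, mRpL21, mRpL33, mRpS16, mRpS21 and mRpS29. Of these, mRpS16, mRpS21 and mRpL33 had no thresholded peak in any replicate's list, and of the 3 only mRpS21 was also in the authors' largest combined list of 4488 peaks.

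The letters CAGCTG, an E-box form that is a recurrent element of fly core promoters, were common in these promoters whether or not a peak lay there. In the 300 bases from 250 upstream to 50 downstream of the most upstream TSS, the letters occurred at 40 of the 73 genes (54.8%), beside 17.6% of all 13968 promoters. They were in the promoters of 9 of the 17 called and 31 of the 56 uncalled genes. The share was 53.4% for the 58 genes with a divergent promoter, beside 22.0% of all such genes, and 60.0% for the 15 without, beside 15.2%. The first base of the match nearest the TSS lay at a median of +4 bases from the TSS for the 40 genes, and of −45.5 bases for all 2464 promoters with a match; these positions and the split by promoter type were added after the counts were seen. The 7 matches below, from called genes, are shown because these letters are the most common of the searched motifs in this promoter set; each is 26 bases long on the gene's strand, with CAGCTG in capitals.
mRpL23, 28 bases upstream, chr3L:2373717-2373742: ggttgacaatCAGCTGtttaaaacaa
mRpL24, 20 bases downstream, chr2L:4945326-4945351: cagttctcaaCAGCTGattgcaagcc
mRpL32, 16 bases upstream, chr3R:31252846-31252871: atcgatagcaCAGCTGtttcctcttg
mRpL35, 5 bases upstream, chr3R:22023512-22023537: gaatggcacaCAGCTGactgttacgc
mRpL47, 18 bases downstream, chr3R:9515875-9515900: gttattgcttCAGCTGttttgttcgg
mRpS2, 11 bases upstream, chr2L:4850415-4850440: cactacccacCAGCTGtttaccaaaa
mRpS6, 14 bases downstream, chr3L:4364554-4364579: ttccttgcatCAGCTGttaacactat

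At the summits themselves CAGCTG lay within 100 bp at 6 of the 17 called genes (35.3%: mRpL24, mRpL34, mRpL35, mRpL41, mRpS2 and mRpS6), beside 10.7% of all 2643 regions. At mRpL35 and mRpS6 this is the match printed above. At mRpL24 and mRpS2 the printed match lies more than 100 bp from the summit, so the letters occur there again. The 2643 regions were not limited to promoters, whereas the 17 summits all lie within 406 bp of the gene's TSS. The shares of summits and of regions are therefore not matched, for this motif and for those below. TATCGATA, the core of the DRE bound by the promoter factor Dref, was at the summit of mRpL39 only (5.88%, beside 4.05% of regions), and in 15 promoters (20.5%, beside 9.36%). GGTCACACT, the core bound by M1BP, which activates many housekeeping and ribosomal protein genes, was at none of the 17 summits, beside 1.48% of regions. It was in 8 promoters (11.0%, beside 6.03%), all of uncalled genes, which make up 56 of the 73. The called share among all promoters with these letters was not counted, so no separation from called genes can be read here. TATAAA was at 5 summits (29.4%, beside 31.9%) and in 34 promoters (46.6%, beside 45.8%).

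The other 6 motifs were in 13 or fewer of the 73 promoters. TCAGTT, an initiator form, was at the summit of mRpL47 (5.88%, beside 12.4%) and in 13 promoters (17.8%, beside 26.1%). AAGTCA, a core site of the Tailless type, was at none of the 17 summits, beside 9.65% of regions, and in 9 promoters (12.3%, beside 16.2%). AAGGTCA, the core site of estrogen-related receptors, was at none of the summits (beside 0.984%) and in none of the promoters (beside 2.11%). CACGTG, another E-box, was at no summit (beside 2.38%) and in 5 promoters (6.85%, beside 4.20%). GAGAGAG (beside 4.16% of regions and 5.86% of promoters) and GCGCANGCG, the core of the NRF-1 relative Ewg (beside 0.227% and 1.496%), were at no summit and in 1 promoter each, mRpL43 and mRpS25. Motifs were read on both strands, AAGGTCA can overlap GGTCACACT, and no match says only that the letters are not in the window.

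The other genes of mitochondrial gene expression, from a list written by role, gave 8 called of 43 (18.6%), near the 16.0% of all genes. The 2 mitochondrial ribosomal proteins with other symbols were not called: tko, the S12 protein, had a peak in replicate 2 at the 49.0th percentile, and bonsai, the S15 protein, had none. Of 9 translation factors none was called. Of 19 genes for tRNA charging 3 were: LeuRS-m, the leucyl-tRNA synthetase, at 91.0 ± 3.80 (SD, n = 4), GatA of the glutamine amidotransferase at 86.0 ± 10.04 (n = 4), and ArgRS-m in 2 lists at 20.8 ± 23.9. Of 13 genes for transcription and RNA maturation 5 were called. SLIRP2, an RNA-binding protein gene, stood at 95.2 ± 1.77 (n = 4), SLIRP1 at 40.5 ± 20.4 and mtTFB1, a methyltransferase gene, at 14.6 ± 12.3 (both n = 3), and mTerf5 at 37.8 ± 18.2 and rswl at 28.6 ± 1.79 (both n = 2). As at the ribosomal protein genes, the nearest TSS was often a neighbour's, such as Dhc64C for LeuRS-m and P5cr for GatA. By promoter 7 of 25 genes with a divergent promoter and 1 of 18 without were called, beside 28.7% and 8.76% of all such genes. A divergent promoter was present at 3 of the 9 translation factors, 10 of the 19 charging genes and 11 of the 13 maturation genes. The counts by role were not split by promoter.

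In 2 related families counted the same way, 38 of 92 cytosolic ribosomal protein genes (41.3%) and 15 of 88 genes for oxidative phosphorylation subunits (17.0%) were called, beside the 23.3% of the mitochondrial ribosomal protein genes. A peak in all 4 lists was found at 15.2% of the cytosolic set and 5.68% of the oxidative phosphorylation set. Of all protein-coding genes 16.0% were called and 7.88% had a peak in all 4 lists. At divergent promoters 28 of 55 cytosolic and 13 of 44 oxidative phosphorylation genes were called, beside the 17 of 58 mitochondrial ribosomal protein genes. At promoters without a divergent partner the counts were 10 of 37 and 2 of 44, beside none of the 15. Over all genes the called share was 28.7% with a divergent promoter and 8.76% without one. These differences between families were not tested.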

How the data were processed

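Per the file headers and README texts deposited with the samples, each peak list was made per replicate on dm6, and further lists combined all 4 replicates. Aligner, peak caller and versions: not given in the sources used here. The signal column is the authors' own value per peak, against a background not stated; the deposited lists also hold a −log10 q-value per peak, a −log10 IDR in the ranked lists, and the authors' IDR score, at least 830 in every thresholded list (IDR is the irreproducible discovery rate). No read counts are given, so depth is unknown and no interval was computed.

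Genes and TSSs came from Ensembl release 115 and sequences from the RefSeq dm6 assembly, on whose arms all peaks lie. A percentile is the share of a list's peaks with signal at or below that of the gene's strongest peak within 1 kb. Scripts ran in Python 3.11.15 with numpy 2.4.6 and were tested on simulated data. No statistical test was made: counts stand beside the same count over all genes. Of 51 role symbols written, 43 matched, and 4 of the 8 unmatched were other spellings of matched genes. Named are all called genes, those in 1 list, the 6 highest uncalled by ranked percentile, and called genes of the role list; neighbours are named for called members other than mRpL37, whose neighbour is not reported here. The members and lists were chosen with earlier results of these data known. Alternatives changed the number of lists, window, TSSs, gene assignment, peak set, strength measure and definition of a divergent pair, and left out each replicate.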

Additional observations from a re-analysis of the deposited data

How the results depend on the processing

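The 73 genes had a higher called share than all genes in 18 of 18 alternatives, by 1.05 points (nearest TSS only) to 18.4 points (1 list). The alternatives all come from the same 4 replicates, the counts moved with the setting, and the cause was not tested. From 17 genes and 2232 of all genes (7.31 points apart), requiring 1 list gave 31 and 3366 (18.4 points), and requiring all 4 lists gave 8 and 1101. A window of 200 bp gave 14 of the 73 and 1317 of all genes (9.75 points), and one of 2 kb gave 26 of the 73 (15.9 points). Giving a summit only to the nearest TSS gave 9 (12.3%), beside 11.3% of all genes (1.05 points). The authors' conservative list gave 26 (15.9 points) and their largest list 30 (18.2 points). The stronger 50% of each list gave 12 of the 73 and 1313 of all genes (7.04 points). Leaving out replicates in turn gave 14 to 16 of the 73, lowest without replicate 2, when mRpL35, mRpS6 and mRpS22 were lost. The median mean percentile of 61.3 was 74.1 by the −log10 q column and 57.3 to 75.3 when a replicate was left out, highest without replicate 1. With pairs up to 250 bp apart 25 of the genes had a divergent promoter. Among the alternatives added after seeing the data, called genes without a divergent promoter numbered 2 of 15 with 1 list (beside 13.9% of all such genes), 2 of 15 at 2 kb (12.3%), 2 of 20 with pairs up to 500 bp apart (10.5%) and 11 of 48 with pairs up to 250 bp (14.2%), against 0 of 15 (8.76%). No paired analysis was possible because there is 1 group. List length differs between replicates and depth is unknown, so a gene absent from a list was not called there and cannot be said to lack Gug.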
